A study of Arabidopsis thaliana with 43 samples.

Results

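Leaves of acclimated and non-acclimated Arabidopsis thaliana seedlings were compared 2 days after both had been through the same heat shock. The comparison took every library labelled T8 (acclimated) and every library labelled T11 (non-acclimated), which is 8 of the 43 libraries and 4 of the 22 plates of the series. All plants were of the Col-0 accession. They grew in plates of about 80 seedlings at 22 °C with 16 h of light a day, and all leaf tissue of a plate was harvested and divided between 2 tubes. The acclimated plants had first been warmed on day 12 from 22 °C to 45 °C over 6 h and held at 45 °C for another 90 min, then returned to 22 °C. On day 16 acclimated and non-acclimated plants alike went straight into a chamber at 45 °C for 90 min, and on day 18, back at 22 °C, T8 and T11 were harvested. T9, non-acclimated leaves of day 16 taken before the shock, served as the never heated reference. T6 (acclimated, before the shock), T7 (acclimated, shock end) and T10 (non-acclimated, shock end) were used beside it. The protocol text does not give the roles of T7, T8 and T9 without contradiction, and the roles used here follow the time point and sampling temperature labels, which put T8, T9 and T11 at 22 °C.

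A plant that has met rising, non-lethal heat survives a later heat shock better than one that has not, a property called acquired thermotolerance. Heat shock factors switch on chaperone genes, small heat shock proteins hold unfolding proteins in solution, and HSP101 with HSP70 pulls aggregates apart. The HSFA2 factor and its targets keep part of this programme active for days. Leaves also cut the transcripts of the photosynthetic apparatus and of growth under stress, and restore them during recovery.

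Gene counts in the T8 and T11 libraries ran from 8.45 to 14.71 per library in units of 1e6, within the range of 6.36 to 21.3 of the series. The tubes of a plate were technical repeats and were summed, so each side had n = 2 plates, 1 in each batch, and p-values measure the spread between such plates. Across genes, levels correlated with r of 0.985 to 0.996 between tubes of a plate, 0.957 to 0.979 between libraries of the same time point in different batches, and 0.916 to 0.951 between T8 and T11 libraries of one batch. The libraries differed in make-up as well. The 10 most abundant genes took 3.62% to 4.38% of gene counts at T8, 8.63% to 10.7% at T11 and 9.15% to 9.94% at T9. Records aligned to more than 1 place were 5.21% to 25.3% at T8 and 14.1% to 41.5% at T11. Their part in the results was not tested.

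Plates were also set against every other plate of the series by the Pearson correlation of log2(CPM + 1) over genes, where CPM is counts scaled to 1e6 per plate. The T11 plates were most like the T10 plates of the same batch (r = 0.985 and 0.991), which had been sampled at 45 °C at the end of the shock, and correlated with each other, across batches, at r of 0.964. The T8 plate of batch 1 was most like the T8 plate of batch 2 (r = 0.979). That of batch 2 was most like the T5 plate of its batch (r = 0.987), which is acclimated leaves 2 days after acclimation. Against T11 of the same batch, T8 correlated with r of 0.925 in batch 1 and 0.951 in batch 2. Across batches, T11 of batch 1 correlated with T10 of batch 2 at r of 0.961 and T11 of batch 2 with T10 of batch 1 at 0.958, both below the 0.964 between the T11 plates. With T7 of the same batch, the acclimated leaves of shock end, T11 correlated at 0.979 in batch 1 and 0.987 in batch 2, nearly as high as with T10. Across batches, T11 of batch 1 correlated at 0.97 with T7 of batch 2, and T11 of batch 2 at 0.946 with T7 of batch 1. T11 is labelled as sampled at 22 °C, 2 days after the shock.

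**Figure D1:**
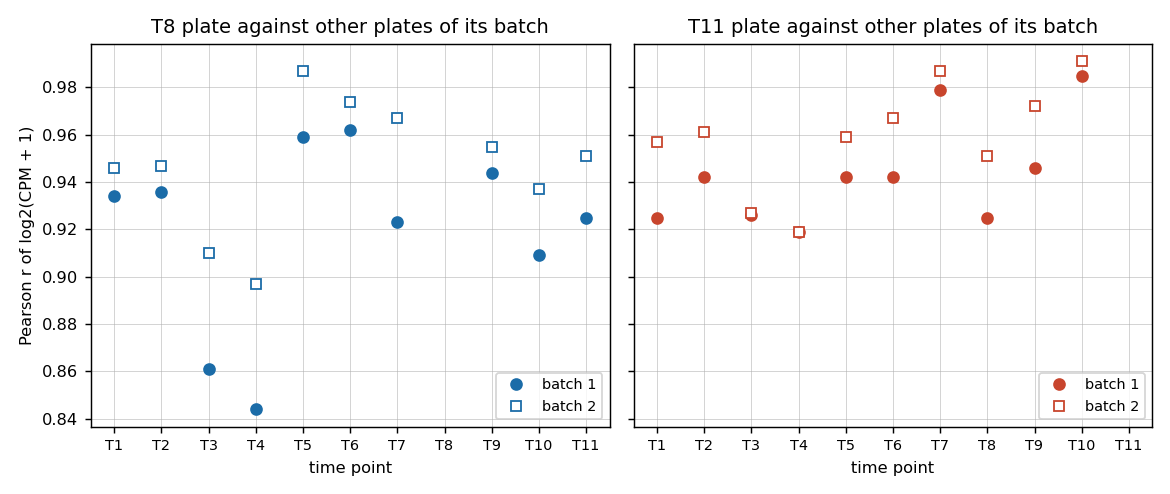
Pearson correlation over genes of log2(CPM + 1) between each T8 or T11 plate and the plates of the same batch at each time point (filled circles batch 1, open squares batch 2). T11 lies closest to T10 in both batches (0.985 and 0.991), and T8 of batch 2 closest to T5 (0.987).

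To show the DNA in front of the genes at the ends of the comparison, the 250 bases before the annotated transcript start are given. They are shown for the named genes with the highest and the lowest fitted changes and for HSP21. Among the 6 small heat shock proteins whose listed symbol the annotation gives, HSP21 had the smallest p. It did not differ between T8 and T11 at an edgeR adjusted p under 0.05. These windows come from the RefSeq TAIR10.1 genome and are written 5′ to 3′ on the gene's strand. Capitals mark a match, on either strand, to the heat shock element GAANNTTC, the W-box TTGACC or TTGACT bound by WRKY factors, the G-box CACGTG or the evening element AAAATATCT. AMY1, at chr4:12853846-12854095 on the minus strand, and PHI-1, at chr1:12851733-12851982 on the plus strand, lie in front of the named genes with the largest increases.
AMY1: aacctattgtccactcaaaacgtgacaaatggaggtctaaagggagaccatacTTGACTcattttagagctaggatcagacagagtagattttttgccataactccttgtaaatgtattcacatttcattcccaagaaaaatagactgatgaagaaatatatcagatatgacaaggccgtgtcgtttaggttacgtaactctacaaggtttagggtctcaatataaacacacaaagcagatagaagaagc
PHI-1: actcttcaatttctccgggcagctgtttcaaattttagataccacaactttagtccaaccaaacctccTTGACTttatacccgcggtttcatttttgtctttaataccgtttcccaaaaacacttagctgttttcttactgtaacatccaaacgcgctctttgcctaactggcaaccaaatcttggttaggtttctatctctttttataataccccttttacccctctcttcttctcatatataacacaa
PDF1.2, at chr5:17907639-17907888 on the minus strand, and PDF1.2c, at chr5:17909508-17909757 on the minus strand, lie in front of the named genes with the largest decreases.
PDF1.2: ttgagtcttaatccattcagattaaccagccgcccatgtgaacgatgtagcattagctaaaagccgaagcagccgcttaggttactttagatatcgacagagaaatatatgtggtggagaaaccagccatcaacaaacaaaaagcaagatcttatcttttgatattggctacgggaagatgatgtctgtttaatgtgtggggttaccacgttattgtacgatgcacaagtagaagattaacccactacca
PDF1.2c: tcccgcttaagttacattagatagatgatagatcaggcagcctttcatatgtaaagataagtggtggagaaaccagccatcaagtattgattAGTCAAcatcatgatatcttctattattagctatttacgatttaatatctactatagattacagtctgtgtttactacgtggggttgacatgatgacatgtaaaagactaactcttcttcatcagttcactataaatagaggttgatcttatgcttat
HSP21, at chr4:13819972-13820221 on the minus strand, lies in front of a chloroplast chaperone gene.
HSP21: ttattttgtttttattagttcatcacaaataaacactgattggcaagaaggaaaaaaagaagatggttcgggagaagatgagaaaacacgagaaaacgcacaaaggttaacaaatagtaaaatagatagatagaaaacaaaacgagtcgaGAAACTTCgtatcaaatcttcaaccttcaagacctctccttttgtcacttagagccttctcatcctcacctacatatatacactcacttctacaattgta
The W-box lay 197 bases before the start of AMY1, at -197, and at -182 in PHI-1 and -158 in PDF1.2c, where it is read on the other strand as AGTCAA. The heat shock element of HSP21 lay at -100, and the PDF1.2 window held none of the 4 motifs. The defensin windows of PDF1.2 and PDF1.2c had the same base at 26.8% of positions without gaps. The other pairs of windows shown ran from 22.8% to 30.8%. Such a count misses stretches shared at different distances from the start, so it does not measure how alike the windows are. Over all 26711 protein-coding genes, windows of the same length held a heat shock element in 9.47%, a W-box in 28.5%, a G-box in 6.58% and an evening element in 2.4%. Of the 12 named genes that were higher at T8, 7 held a W-box and 1 a heat shock element, and of the 12 that were lower, 5 held a W-box and 1 a heat shock element. These matches are letters in a window and are given as a description.

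Acclimated and non-acclimated leaves differed in a large share of their transcripts 2 days after the shock. Of 20980 genes tested, 5726 (27.3%) passed at an adjusted p under 0.05 in edgeR's quasi-likelihood test, 2907 higher at T8 (13.9%) and 2819 lower (13.4%). A change of at least 4-fold was fitted for 1932 of them, 1050 higher and 882 lower. The sign was the same in both batches for 5699 of the 5726. Both T8 plates lay above both T11 plates for 6382 of all genes tested and below them for 6125, together 59.6%, and the plates of 103 genes that passed overlapped. The median log2 change of all genes was 0.01. Scaling by library size alone moved that median to 0.54 and the calls to 5376 higher and 1228 lower, so directions below are relative to the bulk of genes, and the counts with library size scaling are given beside lists whose balance of higher and lower genes turns. In bulk leaf tissue, fewer cells of a type and less RNA per cell cannot be told apart.

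These calls rest on a spread shared over all 22 plates. The 4 plates fitted alone, with 1 residual degree of freedom, gave 0 genes at an adjusted p under 0.05 by edgeR and 5275 at an unadjusted p under 0.05. Leaving out the T8 plate of batch 1 left 1654 genes, that of batch 2 left 4352, and leaving out the T11 plate of batch 1 or batch 2 left 2967 or 3302. T8 of batch 1 was the plate on which most calls depended.

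The genes named here are the 12 highest and 12 lowest fitted changes among genes that passed, had a symbol, kept 1 sign in both batches and reached a mean of 10 CPM at T8 or T11. List members outside that rule with still higher fitted changes were XTH33, with 3061 and 4 counts at T8 and 1 and 8 at T11, XTH25, with 49 and 10 counts against 0 and 0, and YLS9, with 21 and 44 counts against 0 and 0. The 12 increases include an amylase, an invertase, wall enzymes, lipid transfer proteins and an anion channel. AMY1 (AT4G25000, chr4:12851795-12853845), an alpha-amylase, stood at 16.0 CPM in batch 1 and 23.1 CPM in batch 2 at T8, at 0.0541 and 0.237 CPM at T11 and at 0.336 and 0.541 CPM at T9. Both T8 plates lay far above all 4 others, and the log2 change from T11 to T8 was 7.40 ± 1.06 (SE, edgeR adjusted p = 0.000692). CWINV5 (AT3G13784), a cell wall invertase that splits sucrose outside the cell, stood at 45.9 and 39.5 CPM at T8 and 0.595 and 0.316 CPM at T11, with 1.07 and 0.730 CPM at T9. Its T8 plates were close to each other, and the change was 6.64 ± 0.70 on the log2 scale (edgeR adjusted p = 0.000188).

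A group of wall and growth genes was high mainly in the T8 plate of batch 1. XTR6, a xyloglucan endotransglucosylase that cuts and rejoins wall polymers, stood at 232.9 and 25.4 CPM at T8 and 1.68 and 1.78 CPM at T11 (log2 change 6.83 ± 1.24, edgeR adjusted p = 0.00213). EXLA1, an expansin-like protein, stood at 247.6 and 13.98 CPM against 1.57 and 2.29 CPM (6.52 ± 1.196, edgeR adjusted p = 0.0022). For both, each T8 plate lay above each T11 plate, while the T9 plate of batch 2 held 7.24 CPM of XTR6 and 13.4 CPM of EXLA1. PHI-1 (228.3 and 7.35 CPM against 1.84 and 0.237 CPM), an EXORDIUM-like protein also induced by phosphate, SLAH3 (655.6 and 38.5 against 9.41 and 6.33 CPM), an anion channel of the plasma membrane, EXO (379.3 and 10.3 against 6.65 and 2.69 CPM), the brassinosteroid-responsive EXORDIUM, and XTH18 (30.9 and 7.2 against 0.487 and 0.830 CPM), of the same enzyme family as XTR6, showed the same split between batches. Their fitted log2 changes were 7.22, 5.60, 5.55 and 5.72. Without the T8 plate of batch 1 these fell to 1.36, 1.86, 0.45 and 2.51 and none of the 4 passed (edgeR adjusted p = 0.577, 0.101, 0.791 and 0.183). Without the T11 plate of batch 2, PHI-1 (5.94), EXO (4.84) and XTH18 (5.03) did not pass either, with edgeR adjusted p of 0.0756, 0.0762 and 0.078.

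The remaining named increases were of secreted or defence-related proteins. LTP4, a lipid transfer protein of the leaf surface, stood at 1598 and 631.2 CPM at T8 and at 51.7 and 2.17 CPM at T11 (5.86 ± 1.05, edgeR adjusted p = 0.00192). AZI1, a lipid transfer-like protein needed for priming of systemic defence, stood at 339.3 and 400.9 CPM at T8, 3.46 and 28.5 CPM at T11 and 23.2 and 139.8 CPM at T9 (5.70 ± 0.94, edgeR adjusted p = 0.00133). AZI1 was thus high in both T8 plates, and its T11 plates lay below the T9 plate of their batch. JRG21, a jasmonate-regulated dioxygenase, stood at 10.2 and 35.7 CPM at T8 and 0.162 and 0.593 CPM at T11. Its log2 change was 6.32 ± 1.24 (edgeR adjusted p = 0.00335), and without the T11 plate of batch 2 it was 5.39 with an edgeR adjusted p of 0.0507. PDF1.4, of the defensin family of small antifungal proteins, stood at 5.64 and 25.9 CPM against 0.216 and 0.356 CPM (5.62 ± 1.01, edgeR adjusted p = 0.00189).

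The 12 named decreases include defensins, light-harvesting proteins and a heat shock factor. PDF1.2b, outside the rule, had a lower fitted change still, with 0 counts in both T8 plates and 0 and 212 at T11. PDF1.2, a defensin used as a marker of jasmonate and ethylene signalling, stood at 0.0282 and 0.305 CPM at T8 and at 0.0541 and 53.0 CPM at T11, and PDF1.2c and PDF1.3 had the same layout, with 26.6 and 33.9 CPM in the T11 plate of batch 2 and no other T8 or T11 plate above 0.419 CPM. Only that T11 plate was high, and the T9 plate of batch 2 also held 17.1 CPM of PDF1.2. The fitted log2 changes of PDF1.2, PDF1.2c and PDF1.3 were -6.48, -6.27 and -5.78 (edgeR adjusted p = 0.0177, 0.0144 and 0.0251), and without the T11 plate of batch 2 they were -1.73, -2.66 and -1.85 with edgeR adjusted p of 0.799, 0.634 and 0.798. They did not pass without the T8 plate of batch 1 (edgeR adjusted p = 0.0667, 0.0588 and 0.0895) or of batch 2 (edgeR adjusted p = 0.2, 0.183 and 0.197) either. These genes are near-identical copies, and reads that aligned to more than 1 place were counted for no gene. PDF1.5, a more distant member, stood at 1.38 and 0.267 CPM at T8 and 28.6 and 5.46 CPM at T11 (-4.31 ± 0.85, edgeR adjusted p = 0.00308), with 3.17 and 3.76 CPM at T9.

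HSFA7A, a heat shock factor that is itself induced by heat, stood at 15.39 and 22.9 CPM at T8, 573.0 and 203.1 CPM at T11 and 0.488 and 1.70 CPM at T9. It had thus come far down in acclimated leaves while the T11 plates stood above and below the T10 plates of shock end (446.2 and 352.8 CPM). The log2 change from T11 to T8 was -4.40 ± 0.71 (edgeR adjusted p = 0.00122). LHCB2.3, a light-harvesting protein of photosystem II, stood at 4.71 and 46.4 CPM at T8, 206.7 and 1058 CPM at T11 and 229.9 and 979.8 CPM at T9, a change of -4.81 ± 0.71 (edgeR adjusted p = 0.000833). LHB1B1, of the same family, fell by 4.55 ± 1.34 on the log2 scale (edgeR adjusted p = 0.0222) and did not pass without the T8 plate of batch 1 (-3.62, edgeR adjusted p = 0.163) or the T11 plate of batch 2 (-4.28, edgeR adjusted p = 0.07). PORA, which reduces protochlorophyllide in the light, stood at 0 and 0.533 CPM at T8 and at 0.920 and 29.4 CPM at T11 (-5.67 ± 1.23, edgeR adjusted p = 0.00482).

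The remaining named decreases held in both batches. EXPA8, an expansin that loosens the walls of growing cells, stood at 0.169 and 1.49 CPM at T8 against 8.28 and 32.0 CPM at T11 and 24.8 and 65.6 CPM at T9. THI2.2, a thionin with antimicrobial activity, stood at 0.423 and 1.60 CPM against 32.5 and 15.69 CPM. MLP329, of the major latex protein family, stood at 0.592 and 0.495 CPM against 13.4 and 12.7 CPM, and SIS, a gene named for its induction by salt, at 0.733 and 0.495 CPM against 16.9 and 7.195 CPM. In each of these genes both T8 plates lay below both T11 plates, and the log2 changes ran from -4.79 for THI2.2 to -4.29 for SIS, all with an edgeR adjusted p of at most 0.00319.

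**Figure D2:**
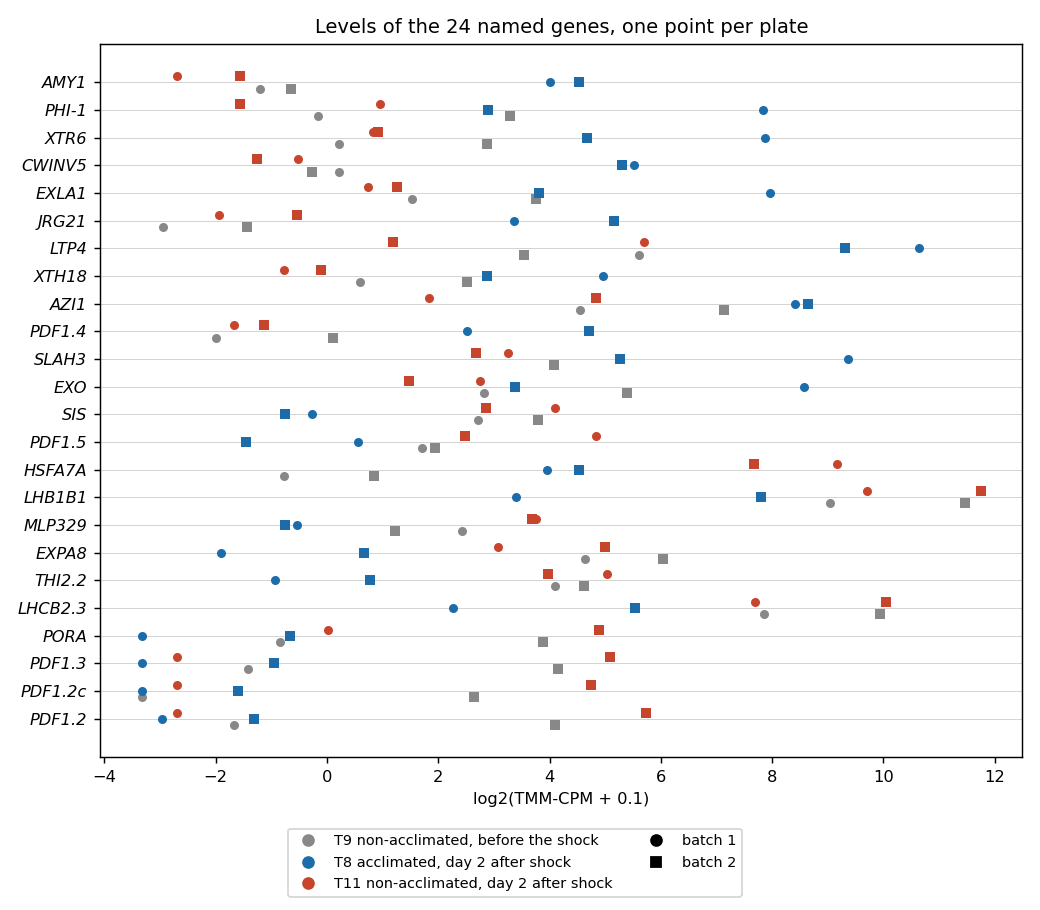
Levels of the 24 named genes by plate, as log2(TMM-CPM + 0.1), with T9 in grey, T8 in blue and T11 in red (circles batch 1, squares batch 2). AMY1 and CWINV5 are high in both T8 plates, PHI-1 and EXO mainly in the T8 plate of batch 1, and PDF1.2, PDF1.2c and PDF1.3 mainly in the T11 plate of batch 2.

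Transcripts of the photosynthetic apparatus were lower in acclimated leaves. All 33 nuclear photosystem genes tested passed as lower at T8 than at T11, beside 13.4% of all genes, with a median log2 change of -2.92 (-3.86 in batch 1, -2.3 in batch 2) and a range of -4.55 to -1.34. Their summed level was 7937 and 26370 CPM at T8, 116000 and 125800 CPM at T11 and 81920 and 97090 CPM at T9. Both T8 plates lay below all others, and the T11 plates above those of T9. Against T9, 32 of the 33 were lower at T8 (median -2.47, beside 9.58% of all genes) and 0 passed at T11 by edgeR, also at an unadjusted p under 0.05 and by DESeq2 (median 0.43), in comparisons that share the T9 plates. PSAK, a subunit of photosystem I, stood at 75.6 and 209.2 CPM at T8, 1959 and 1580 CPM at T11 and 741.3 and 1036 CPM at T9 (T8 against T11 -3.69 ± 0.61, edgeR adjusted p = 0.00135). PSAO, another subunit, stood at 158 and 565.6 CPM against 2288 and 2808 CPM at T11 (-2.92 ± 0.55, edgeR adjusted p = 0.00252), and NPQ4, which dissipates excess light energy, had the smallest change (-1.34). Without the T8 plate of batch 1 only 8 of the 33 passed, and without any one of the other 3 plates 30 to 32.

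Chlorophyll synthesis and carbon fixation showed the same direction with smaller sizes. Of 18 chlorophyll synthesis genes 16 were lower at T8 (median -1.82), beside 13.4% of all genes, and their sum was 1335 and 2787 CPM at T8 against 6114 and 10050 CPM at T11. HEME2, a uroporphyrinogen decarboxylase, stood at 40.0 and 69.7 CPM against 270.6 and 303.8 CPM (-2.40 ± 0.32, edgeR adjusted p = 0.000514). CHLM, a methyltransferase of the magnesium branch, stood at 37.3 and 73.0 CPM against 316.0 and 275.5 CPM (-2.41, edgeR adjusted p = 0.00165). Of 16 Rubisco and Calvin cycle genes 12 were lower (median -1.57), beside the same 13.4%, among them RBCS3B, a small subunit of Rubisco, with 450.4 and 642.5 CPM against 2657 and 3979 CPM (-2.60 ± 0.52, edgeR adjusted p = 0.00326). Its copies are nearly identical, so its level is uncertain, and without the T8 plate of batch 1 it did not pass (-2.34, edgeR adjusted p = 0.0521). Without the T8 plate of batch 1, 8 chlorophyll genes and 0 Rubisco and Calvin cycle genes passed, and without the T11 plates of batch 1 or batch 2 the latter count was 3 or 2.

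Both sides held the transcripts that define leaf tissue, at T8 at the reduced level given above. The 12 root markers were led by PYK10, a beta-glucosidase of endoplasmic reticulum bodies, with 552.1 and 760.9 CPM at T8 and 157.0 and 174.9 CPM at T11 (1.97 ± 0.48, edgeR adjusted p = 0.00911), a gene also active in seedling shoots. PYK10 did not pass without the T11 plate of batch 1 (2.05, edgeR adjusted p = 0.0524) or batch 2 (1.88, edgeR adjusted p = 0.0646). SCR, of the endodermis and also of leaf bundle sheath, had 587 and 590 counts at T8 and 59 and 313 at T11. SHR had 120 to 187 counts in the 4 plates, the phosphate transporter PHT1;1 39 to 598, CASP1 of the Casparian strip 15 to 116, NRT2.1 7 to 66, WOX5 14 to 54 and RHD6 0 to 12. COBL9 of root hairs had 0 counts in all 4 plates, and RSL4, PLT1 and PLT2 had at most 9 counts in any. The summed root list, most of it PYK10, was 578.8 and 803.1 CPM at T8 and 174.6 and 223.9 CPM at T11. Its median log2 change was -0.94, with 1 of 11 tested genes higher and 1 lower, beside 13.9% and 13.4% of all genes. The part of root tissue in the changes was not tested. Of 11 vascular markers 2 were higher and 3 lower, beside 13.9% and 13.4% of all genes, and 4 and 1 with library size scaling. Without any 1 of the 4 plates 1 was higher and 0 to 2 were lower. The list had sums of 241.9 and 245.0 CPM at T8 and 175.9 and 146.3 CPM at T11. SWEET12, a sucrose exporter of the phloem, stood at 23.98 and 38.0 CPM at T8, 5.73 and 5.46 CPM at T11 and 26.2 and 23.1 CPM at T9 (T8 against T11 2.52 ± 0.45, edgeR adjusted p = 0.00189). Of the 9 shoot apex markers, 7 were tested and 2 were higher, beside 13.9% of all genes, with 0 higher without the T8 plate of batch 1 or the T11 plate of batch 2 and 1 without either of the others.

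Genes of the chloroplast genome were lower in count but not in every plate. Of 87 tested, 64 were lower at T8, beside 13.4% of all genes (median -2.73, -1.24 in batch 1 and -3.42 in batch 2), in a library made from polyadenylated RNA. Their sum was 2076 and 268.3 CPM at T8 and 1815 and 4298 CPM at T11, so the batches disagreed. The T8 plate of batch 1 was itself split, with 0.0227% of gene counts in tube 1 and 0.552% in tube 2. The T11 tubes of that batch held 0.144% and 0.218%. With tube 1 of each plate 64 were lower, and with tube 2 of each plate 9. Leaving out the T11 plate of batch 2 left 14 lower, and leaving out a T8 plate 18 or 19. Of 63 mitochondrion-encoded genes 6 were lower (median -1.49, -2.53 in batch 1 and 0.47 in batch 2), a smaller share than the 13.4% of all genes. That count was 0 without the batch 1 plate of T8 or of T11 and 17 without the T11 plate of batch 2. Against T9, which held only 288.4 and 150.8 CPM of them, both T8 (934.1 and 4034 CPM) and T11 (10600 and 4565 CPM) were high, and 29 and 39 of the 63 passed as higher, beside 7.51% and 3.02% of all genes.

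**Figure D3:**
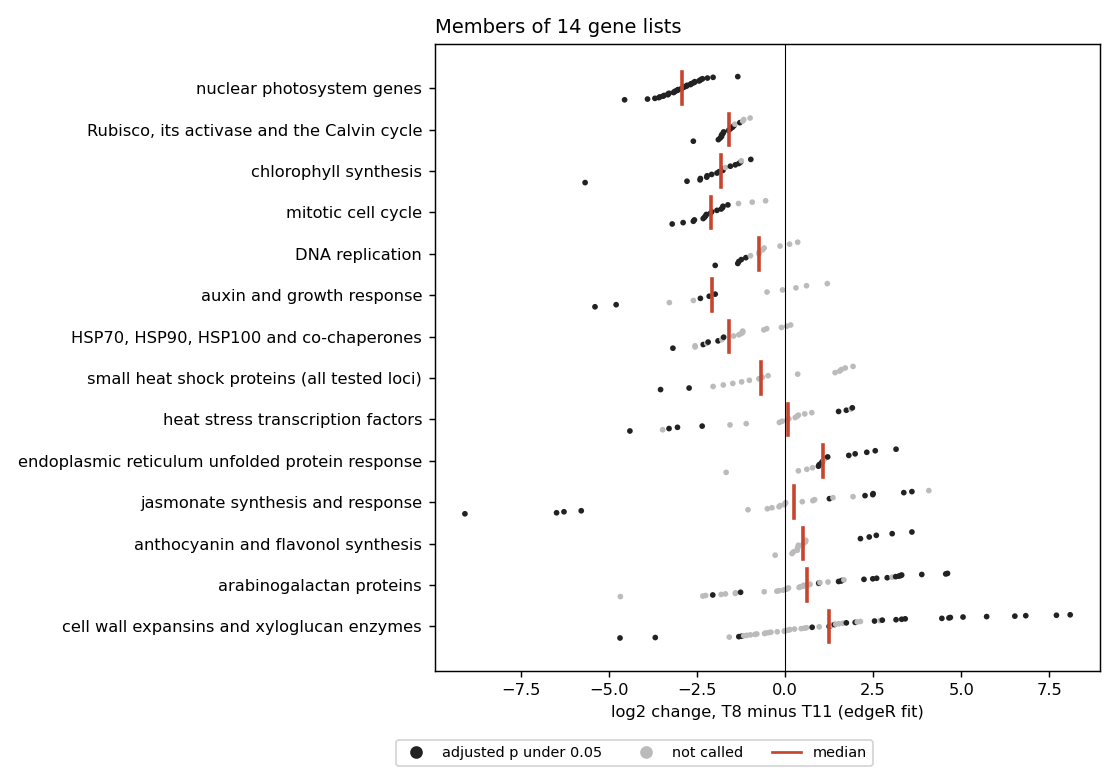
Fitted log2 changes, T8 minus T11, of the members of 14 gene lists, with genes that passed in black, others in grey and the list's median as a red bar. Photosystem members run from -4.55 to -1.34 and of the expansin and xyloglucan enzyme genes 20 are higher and 4 lower. A gene with 0 counts on one side is drawn at its fitted value, which is no bound.

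Most mitotic genes, and a smaller part of the DNA replication genes, were lower in acclimated leaves. Of 18 mitotic cell cycle genes 15 passed as lower at T8, beside 13.4% of all genes (median -2.1, -2.41 in batch 1 and -1.56 in batch 2). For all 18 both T8 plates lay below both T11 plates, beside 6125 of the 20980 genes tested. The sum was 57.3 and 77.1 CPM at T8, 322.9 and 231.7 CPM at T11 and 168.9 and 206.1 CPM at T9. SYP111, the KNOLLE syntaxin that fuses vesicles at the dividing cell plate, stood at 6.09 and 8.27 CPM at T8, 90.9 and 41.9 CPM at T11 and 26.0 and 35.4 CPM at T9 (T8 against T11 -3.20 ± 0.42, edgeR adjusted p = 0.000454). CYC1BAT, a B-type cyclin, stood at 4.79 and 4.11 CPM against 29.5 and 23.4 CPM at T11 (-2.57 ± 0.35, edgeR adjusted p = 0.000554). Against T9, 12 of the 18 were lower at T8, beside 9.58% of all genes, and 0 passed at T11 by edgeR (5 higher at an unadjusted p under 0.05 and 3 by DESeq2). Without the T8 plate of batch 1, 8 of the 18 passed against T11. Of 13 DNA replication genes 5 were lower (median -0.74), beside the same 13.4%, 2 without that plate and 1 with library size scaling. They included PCNA1, the sliding clamp, with 7.89 and 12.5 CPM at T8, 50.6 and 28.9 CPM at T11 and 10.9 and 14.8 CPM at T9 (T8 against T11 -1.98 ± 0.33, edgeR adjusted p = 0.00142). For PCNA1 the T8 plates were near those of T9 and the T11 plates stood above.

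Part of the stomatal lineage genes were lower as well. Of 11 guard cell and stomatal lineage markers 5 were lower at T8 (median -1.36), beside 13.4% of all genes, and the count was again 5 when any 1 of the 4 plates was left out. SPCH, which starts the lineage, stood at 0.845 and 0.648 CPM at T8, 5.14 and 4.31 CPM at T11 and 7.51 and 5.68 CPM at T9 (T8 against T11 -2.65 ± 0.37, edgeR adjusted p = 0.000674). TMM, a receptor that spaces stomata, stood at 1.24 and 1.18 CPM against 9.09 and 5.38 CPM at T11 (-2.58 ± 0.34, edgeR adjusted p = 0.00047). BASL, which polarises the dividing cell, had 4 and 0 counts in the T8 plates and 39 and 41 in those of T11 (-4.78 ± 0.60, edgeR adjusted p = 0.000358). The list's summed level, which mature guard cell genes such as KAT1 also carry, was 57.0 and 40.3 CPM at T8 and 54.1 and 66.1 CPM at T11, so the plates overlapped. Of 12 auxin and growth genes 5 were lower (median -2.07), beside the same 13.4%, 3 without the T8 plate of either batch or the T11 plate of batch 2. PIF4, a factor that drives elongation in warmth, stood at 19.0 and 28.6 CPM at T8, 74.4 and 141.2 CPM at T11 and 81.3 and 120.5 CPM at T9 (T8 against T11 -2.15 ± 0.36, edgeR adjusted p = 0.00149).

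**Figure D4:**
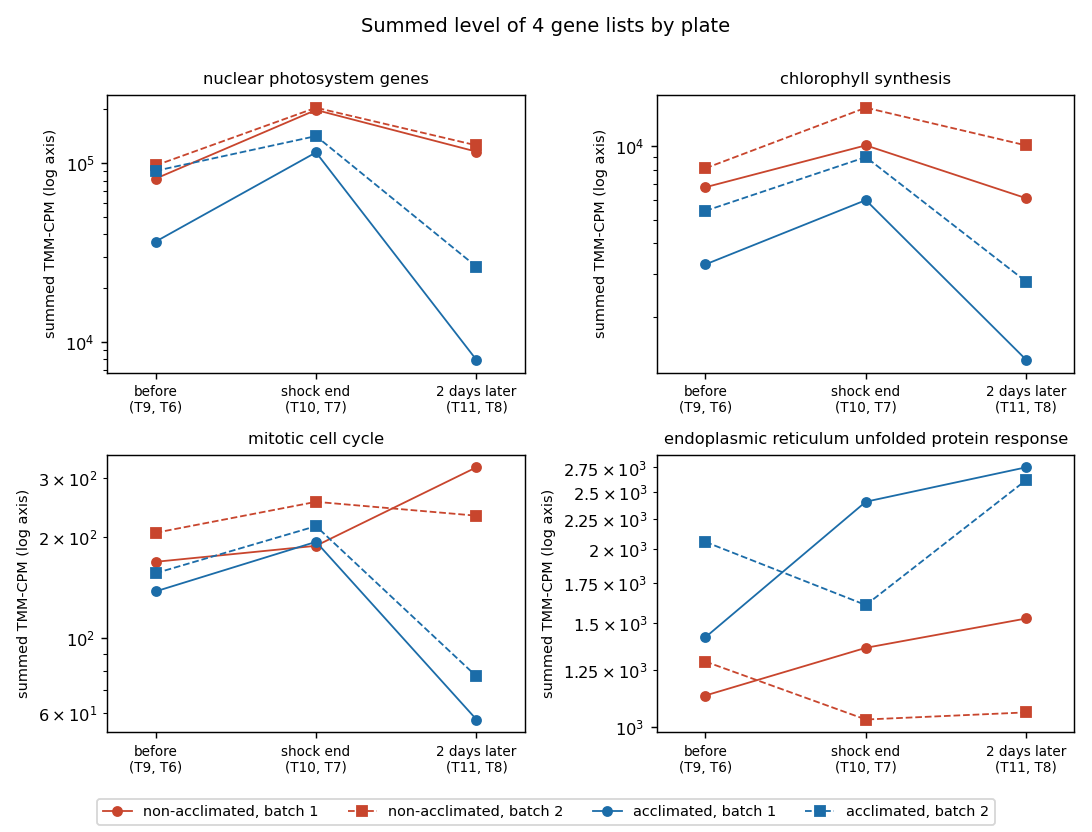
Summed TMM-CPM (log axis) of 4 gene lists before the shock, at its end and 2 days later, in acclimated (blue, T6, T7 and T8) and non-acclimated plates (red, T9, T10 and T11), with solid lines for batch 1 and dashed lines for batch 2. The photosystem sum goes from 114900 and 141800 CPM at T7 to 7937 and 26370 CPM at T8, and from 198500 and 204400 CPM at T10 to 116000 and 125800 CPM at T11.

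Most genes of the folding machinery of the endoplasmic reticulum passed as higher in acclimated leaves, a count that depends on single plates. Of 16 unfolded protein response genes 10 were higher at T8 than at T11, beside 13.9% of all genes, and 0 were lower (median 1.08, 1.2 in batch 1 and 1.21 in batch 2). For 15 of the 16 both T8 plates lay above both T11 plates, beside 6382 of the 20980 genes tested. The sum was 2752 and 2619 CPM at T8, 1526 and 1058 CPM at T11 and 1130 and 1290 CPM at T9. CRT1a, the calreticulin that folds glycoproteins, stood at 212.1 and 173.2 CPM at T8, 39.6 and 38.4 CPM at T11 and 125.1 and 158.8 CPM at T9. Both T11 plates lay below the T9 plates (T11 against T9 -1.84, edgeR adjusted p = 0.00361, beside 3.67% of all genes that were lower), and the change from T11 to T8 was 2.32 ± 0.29 (edgeR adjusted p = 0.000358). UNE5, a protein disulfide isomerase, stood at 213.8 and 168.5 CPM against 51.9 and 44.3 CPM at T11 (1.99 ± 0.29, edgeR adjusted p = 0.000763). BIP3, the HSP70 of the lumen that appears under strong folding stress, stood at 4.23 and 22.6 CPM against 1.35 and 0.870 CPM (3.15 ± 0.80, edgeR adjusted p = 0.011). NAC103, a factor downstream of the sensor pathway, was also higher (2.56). BIP3 did not pass without the T8 (2.27, edgeR adjusted p = 0.0832) or T11 plate of batch 2 (2.23, edgeR adjusted p = 0.116), and NAC103 not without the latter (2.16, edgeR adjusted p = 0.0605). Without the T11 plate of batch 2, 3 of the 16 passed, and without the T8 plate of batch 1, 5.

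Part of the larger chaperones were above the never heated level on each side, and some were lower in acclimated leaves. The list of 20 genes for HSP70, HSP90, HSP100 and their co-chaperones is mostly cytosolic, with the organelle proteins CLPB3, CLPB4 and HSP60. It also holds MBF1C, a transcriptional coactivator and no chaperone. The HSP70 genes HSC70-2, HSP70-3, HSP70-4 and HSP70-5 were dropped because the annotation does not give them these names. HSC70-1 was the HSP70 gene that stayed. Of the 20 genes, 10 were above T9 at T8 (beside 7.51% of all genes) and 16 at T11 (beside 3.02%, out of 6.69% in either direction), in comparisons that share the T9 plates. Between T8 and T11, 5 of the 20, MBF1C among them, were lower at T8, beside 13.4% of all genes, and 0 higher (median -1.6, -2.28 in batch 1 and -0.46 in batch 2). Their summed level was 5274 and 6237 CPM at T8, 30580 and 11090 CPM at T11 and 2471 and 1965 CPM at T9. Without the T11 plate of batch 1, or without the T8 plate of batch 1, 0 of the 20 passed, without the T8 plate of batch 2, 2, and without the T11 plate of batch 2, 7. HSP81-3, a cytosolic HSP90, stood at 208.9 and 242.4 CPM at T8 against 1660 and 709.4 CPM at T11 (-2.32 ± 0.55, edgeR adjusted p = 0.00778). It has near-identical neighbours, and reads that aligned to more than 1 place were not counted. HSC70-1, a constitutive cytosolic HSP70, stood at 1218 and 1259 CPM against 6684 and 2852 CPM (-1.90, edgeR adjusted p = 0.0317). J3, a co-chaperone that hands clients to HSP70, stood at 313.8 and 332.6 CPM against 1568 and 674.1 CPM (-1.74, edgeR adjusted p = 0.0141). Without the T8 plate of batch 2, HSC70-1 did not pass either (-2.05, edgeR adjusted p = 0.0928).

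HSP101, the disaggregase on which acquired thermotolerance depends, stood at 371.8 and 483.8 CPM at T8, 3601 and 1241 CPM at T11 and 5.86 and 7.54 CPM at T9. Both T8 plates lay below both T11 plates, and the log2 difference of -2.55 ± 1.21 did not pass (edgeR adjusted p = 0.126). HSFA2, the factor that prolongs the heat response, stood at 91.2 and 149.6 CPM at T8 against 1623 and 865.9 CPM at T11. It did not pass by edgeR either (-3.47 ± 1.35, edgeR adjusted p = 0.069), but passed by DESeq2 (-3.47, DESeq2 adjusted p = 0.03). MBF1C, a heat-induced transcriptional coactivator, stood at 116.6 and 164.4 CPM against 2063 and 652.9 CPM and passed (-3.18 ± 1.05, edgeR adjusted p = 0.0367). It no longer passed without the T11 plate of batch 1 (-2.26, edgeR adjusted p = 0.194) or without the T8 plate of batch 1 (-2.78, edgeR adjusted p = 0.226) or batch 2 (-3.65, edgeR adjusted p = 0.0907).

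Small heat shock proteins were far above the never heated level on both sides. Of the 6 whose listed symbol the annotation gives, 6 were above T9 at T8 (median 8.57, beside 7.51% of all genes) and 6 at T11 (median 8.53, beside 3.02%). Between T8 and T11, 0 of these 6 passed by edgeR or DESeq2, also at an unadjusted p under 0.05 (median 0.89, -0.54 in batch 1 and 2.28 in batch 2). Their sum was 2815 and 5235 CPM at T8, 4924 and 1405 CPM at T11 and 8.36 and 11.4 CPM at T9, so the batches went in opposite directions. On the authors' values 2 of the 6 were higher at T8 by limma and 0 lower. HSP18.2 was among the higher (3.35, limma adjusted p = 0.0135). HSP21, of the chloroplast, stood at 237.8 and 341.3 CPM at T8 against 172.9 and 28.4 CPM at T11 (1.93 ± 1.04, edgeR adjusted p = 0.177). HSP18.2, of the cytosol, stood at 872.7 and 1531 CPM against 601.7 and 197.1 CPM (1.71 ± 0.97, edgeR adjusted p = 0.197). The listed loci to which the annotation gives another symbol (HSP23.6-MITO) or the locus only were then added, a choice made after seeing the data. Of these 16, 2 were lower at T8 (median -0.69, -1.74 in batch 1 and 0.47 in batch 2), near the 13.4% of all genes. The 2 calls depended on the batch 1 plates of T8 and of T11. APX2, a heat-induced ascorbate peroxidase, stood at 74.4 and 108.9 CPM at T8, 25.9 and 0.870 CPM at T11 and 0.214 and 0.108 CPM at T9. Its T8 plates lay above those of T11 and the change passed (3.65 ± 1.299, edgeR adjusted p = 0.0491), but it was lost without the T11 plate of batch 2 (2.51, edgeR adjusted p = 0.233) or the T8 plate of batch 1 (edgeR adjusted p = 0.0653) or batch 2 (2.33, edgeR adjusted p = 0.212). HSP101, HSFA2, MBF1C, HSP21, HSP18.2 and APX2 all stood above T9 on both sides by the test.

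**Figure D5:**
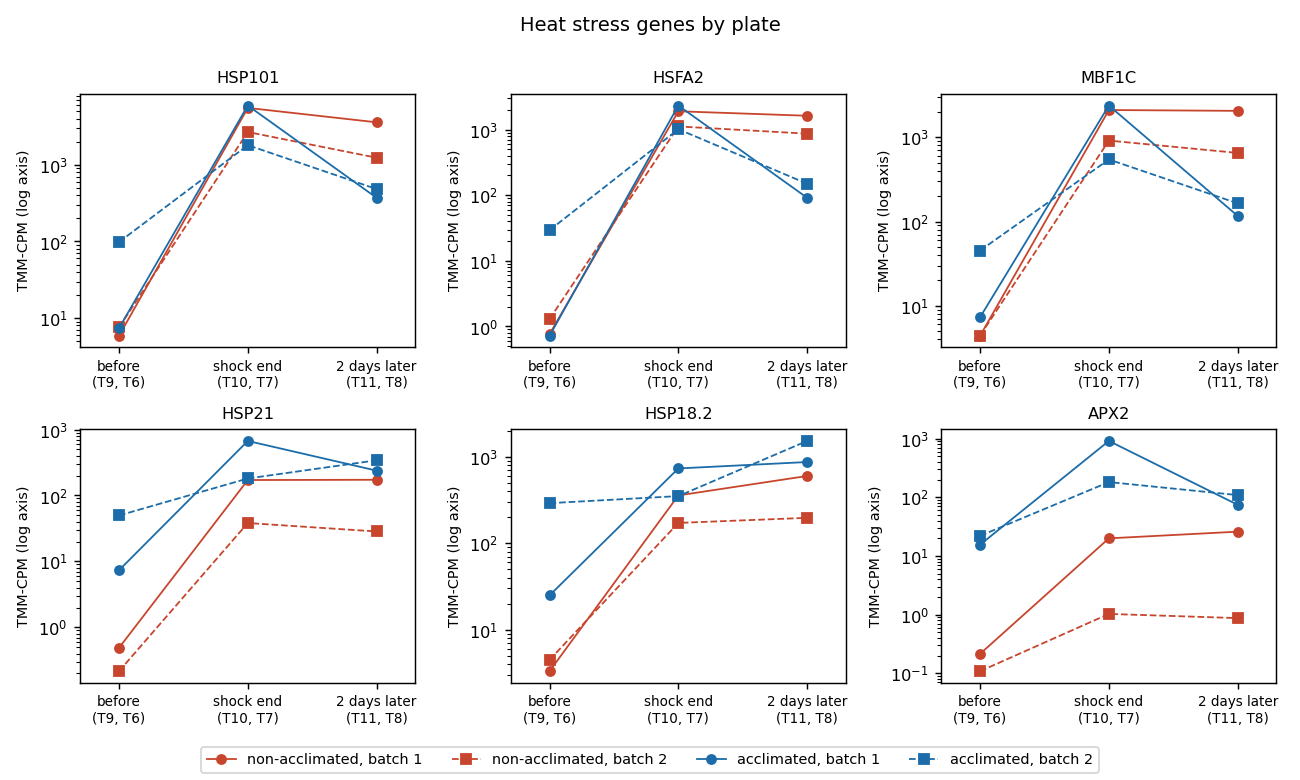
Levels of 6 heat genes in TMM-CPM (log axis) before the shock, at its end and 2 days later, in acclimated (blue) and non-acclimated plates (red), with solid lines for batch 1 and dashed lines for batch 2. At 2 days HSP101 is at 371.8 and 483.8 CPM in acclimated and 3601 and 1241 CPM in non-acclimated plates, while HSP18.2 is at 872.7 and 1531 CPM against 601.7 and 197.1 CPM.

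Among 20 heat stress transcription factors tested, 3 were higher and 4 lower at T8 (median 0.08), beside 13.9% and 13.4% of all genes, and with library size scaling 7 and 3. The higher count was near the share of all genes. It was 1 without the T8 plate of either batch or the T11 plate of batch 2, and the lower count was 1 without the batch 1 plate of T8 or T11. HSF1, also called HSFA1A and one of the factors present before heat, stood at 6.14 and 7.66 CPM at T8 against 2.22 and 1.90 CPM at T11 (1.74 ± 0.32, edgeR adjusted p = 0.00233), and HSFA1E (1.91) and HSFA8 (1.52) were the others that were higher. DREB2A, a dehydration and heat regulator that activates HSFA3, stood at 45.9 and 69.8 CPM at T8 and 638.7 and 323.6 CPM at T11 (-3.05 ± 0.75, edgeR adjusted p = 0.00945). AT-HSFB2B, a repressor-type factor (-2.35), AT-HSFA7B (-3.29) and HSFA7A were the others that were lower. DREB2A did not pass without the batch 1 plate of T8 (-2.72, edgeR adjusted p = 0.107) or T11 (-2.45, edgeR adjusted p = 0.0609), nor did AT-HSFB2B (-2.27 and -1.46, edgeR adjusted p = 0.0881 and 0.114). HSFA8 did not pass without any 1 of the 4 plates (1.25 to 1.84, edgeR adjusted p = 0.0848 to 0.228), and HSFA1E did not pass without the T8 plate of batch 1 (2.48, edgeR adjusted p = 0.0501) or batch 2 (1.17, edgeR adjusted p = 0.244) or the T11 plate of batch 2 (1.14, edgeR adjusted p = 0.27).

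Cell wall and cell surface genes that passed were more often higher than lower in acclimated leaves, although most members did not pass. Of 53 expansin and xyloglucan enzyme genes tested 20 were higher and 4 lower, beside 13.9% and 13.4% of all genes (median 1.25, 0.81 in batch 1 and 0.45 in batch 2). Beside XTH33, XTH25 and EXLA1, described above, the higher members include the xyloglucan enzymes XTR6 (6.83), XTH18 (5.72) and XTH24 (5.05), while the expansins EXPA8 (-4.68), EXPB1 (-3.68), EXPA5 (-1.31) and EXPA15 (-1.23) were lower. XTH24 stood at 400.1 and 105.1 CPM at T8, 8.49 and 18.4 CPM at T11 and 7.72 and 50.2 CPM at T9 (T8 against T11 edgeR adjusted p = 0.0023). The summed list was 3001 and 1735 CPM at T8, 1120 and 1205 CPM at T11 and 1198 and 1446 CPM at T9. Without the T8 plate of batch 1 or the T11 plate of batch 2 the count of higher genes was 9. Of 44 arabinogalactan proteins, glycoproteins of the cell surface, 15 were higher and 2 lower (median 0.61, 1.44 in batch 1 and -0.56 in batch 2), and 2 were higher without the T8 plate of batch 1. FLA1, of this family, was the opposite and steady, with 9.19 and 11.8 CPM at T8, 41.1 and 45.5 CPM at T11 and 35.2 and 41.2 CPM at T9 (T8 against T11 -2.05 ± 0.20, edgeR adjusted p = 0.000179).

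Pigment and defence genes passed in smaller numbers, to be read beside the 13.9% of all genes that were higher and the 13.4% that were lower. Of 15 anthocyanin and flavonol genes 5 were higher and 0 lower, a count of 2 to 4 when 1 plate was left out. TT7, the flavonoid 3′-hydroxylase, stood at 174.0 and 67.2 CPM at T8 and 17.0 and 4.67 CPM at T11 (3.60 ± 0.64, edgeR adjusted p = 0.00176), and MYB111, a flavonol regulator, at 9.84 and 9.6 CPM against 2.33 and 1.46 CPM (2.39, edgeR adjusted p = 0.00108). Of 14 glucosinolate genes 3 were higher, 1 without the T8 plate of batch 1 or either T11 plate. Of 24 jasmonate genes 6 were higher, with the repressors JAZ10 (2.50) and JAZ1 (2.27), and 4 lower, all defensins that rest on the T11 plate of batch 2. Without that plate 0 were lower, and without the T8 plate of batch 1, 0 were higher. Of 20 salicylic acid and pattern defence genes 4 were higher, such as PAD3 of camalexin synthesis (10.5 and 22.9 CPM against 1.19 and 4.31 CPM, 2.79, edgeR adjusted p = 0.00922), and 2 lower, PR5 (-2.48), a thaumatin-like protein, and EDS16 (-1.91), the isochorismate synthase. The medians of this list were 0.83 in batch 1 and -0.75 in batch 2. Its higher count was 1 without the T8 plate of batch 1 or either T11 plate, and PAD3 did not pass in those fits (2.44, 2.73 and 2.86, edgeR adjusted p = 0.0673, 0.0613 and 0.0594).

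The same shares of all genes, 13.9% and 13.4%, stand beside the lists that follow, and several lists lay at or below them. Of 22 abscisic acid and dehydration genes 1 was higher and 5 lower (3 and 2 with library size scaling), and the lower count was 0 without the T8 and 1 without the T11 plate of batch 1. KIN2, a small hydrophilic protein induced by cold and drought, stood at 134.8 and 173.5 CPM at T8, 1895 and 462.8 CPM at T11 and 452.6 and 227.4 CPM at T9 (T8 against T11 -2.63 ± 0.53, edgeR adjusted p = 0.00327), and did not pass without the T8 plate of batch 1 (-2.08, edgeR adjusted p = 0.0579). Of 21 senescence genes 5 were higher and 2 lower, and the higher count was 1 without the T8 plate of batch 1 or the T11 plate of batch 2. Among the higher was RNS1, a secreted ribonuclease, with 121.1 and 63.3 CPM at T8, 3.08 and 0.949 CPM at T11 and 2.38 and 6.30 CPM at T9 (T8 against T11 5.54 ± 1.24, edgeR adjusted p = 0.00585). RNS1 did not pass without either of those plates (4.06 and 4.55, edgeR adjusted p = 0.0643 and 0.0507). Of 20 sugar starvation genes 2 were higher and 5 lower (4 and 1 with library size scaling), and of 19 genes for reactive oxygen enzymes 1 was higher and 4 lower (4 and 2 with library size scaling). Leaving out 1 plate took the lower counts to 1 to 4 in both lists. Of 14 autophagy genes 3 were higher and 3 lower (4 and 2 with library size scaling), with 0 to 1 higher and 0 to 2 lower without 1 plate. Of 13 iron supply genes 1 was higher and 1 lower, as were 1 and 1 of 14 clock genes (1 and 0, and 3 and 0, with library size scaling). LHY, a morning factor of the clock, stood at 13.1 and 50.9 CPM at T8, 2.92 and 4.11 CPM at T11 and 6.93 and 9.14 CPM at T9 (T8 against T11 3.05 ± 0.63, edgeR adjusted p = 0.00392). The ribosomal protein list was drawn from product names. It takes in some plastid members, the mitochondrial HLL and some genes that are not ribosomal proteins, such as LOS1 and eEF-1Bb1. Of its 270 genes tested, 8 were higher and 40 lower (median -0.47). With library size scaling these were 32 and 22 (median 0.07), where the median of all genes also moved, from 0.01 to 0.54. Without 1 plate 14 to 69 were lower, the lowest count without the T8 plate of batch 1 and the highest without the T11 plate of batch 2, and 0 to 6 were higher.

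Both sides were also set against their state before and at the end of the shock. The comparison with shock end was added after the likeness of plates had been seen. From T7 to T8, in acclimated leaves, 5167 genes changed (24.6%), 2518 higher (12%) and 2649 lower (12.6%), with 804 left without the T8 plate and 1015 without the T7 plate of batch 1. From T10 to T11, in non-acclimated leaves, 0 genes passed by edgeR, with 1461 at an unadjusted p under 0.05 and 38 by DESeq2, and the T10 and T11 plates fitted alone gave 1346. These comparisons share plates with T8 against T11 and are given side by side. The photosystem genes were lower at T8 than at T7 in 33 of 33 cases and 0 passed from T10 to T11 by edgeR or DESeq2, also at an unadjusted p under 0.05 (median -0.65). HSFA7A fell by 3.74 on the log2 scale from T7 to T8 (edgeR adjusted p = 0.00344), and from T10 to T11 its log2 difference was -0.01 (edgeR adjusted p = 1).

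Before the shock, few genes passed between acclimated and non-acclimated leaves by the same test. T6 against T9, both on day 16, gave 4 genes (0.0191%), and 647 higher and 686 lower at an unadjusted p under 0.05. With 2 plates a side, a low count does not show that the leaves were alike. The small heat shock proteins summed to 72.8 and 887.5 CPM at T6 against 8.36 and 11.4 CPM at T9 (median log2 difference 5.78), with 0 of 6 passing and 6 higher at an unadjusted p under 0.05 in edgeR. Both T6 plates thus held more than either T9 plate. The tubes of the T6 plate of batch 2 differed from each other more than those of any T8, T9 or T11 plate. The anthocyanin and flavonol genes had a median of 1.82, with 10 of 15 higher at an unadjusted p under 0.05. The difference between T8 and T11 was larger or smaller than that between T6 and T9 in 306 genes (1.46%) when the difference itself was tested, 141 higher (0.672%) and 165 lower (0.786%). FLA1 was among them (-1.97 ± 0.28, edgeR adjusted p = 0.0111), as were SYP111 (-2.80 ± 0.55, edgeR adjusted p = 0.0308), BASL (-4.03 ± 0.75, edgeR adjusted p = 0.0282) and CRT1a (1.70 ± 0.39, edgeR adjusted p = 0.0476). For PSAK (-3.25 ± 0.79, edgeR adjusted p = 0.0548), LHCB2.3 (-3.58 ± 0.88, edgeR adjusted p = 0.0568) and HSFA2 (-7.18 ± 1.95, edgeR adjusted p = 0.0687) it did not pass. AMY1, already at 0.950 and 18.9 CPM at T6, and CWINV5, at 18.5 and 7.78 CPM, differed between T8 and T11 without a difference from the state before the shock that passed (edgeR adjusted p = 0.15 and 0.0844). The count was 0 without either T9 plate and 0 with the T6 to T11 plates fitted alone, so the calls above were lost there. It was 6 without the T8 plate of batch 1, 7 without the T6 plate of batch 2, 10 without the T11 plate of batch 1, 101 without the T6 plate of batch 1, 176 without the T11 plate of batch 2 and 744 without the T8 plate of batch 2.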

How the data were processed

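The study sequenced polyadenylated RNA of seedling leaves, and the 8 libraries of T8 and T11 were compared here with the others as context. The deposited counts are whole reads per locus, for which the submitters' processing notes name the TAIR10 build, HTSeq, SAMtools, TopHat2 2.0.14 with Bowtie2 2.1.0.0, and bcl2fastq 1.8.4. The aligner settings and the strand setting are not given in the sources used here. A read where sense and antisense genes overlap may therefore belong to either, although the library kit keeps strand. Each table holds 33602 loci and 5 summary lines that name no gene, which entered neither library sizes nor tests and made up 14.3% to 43.4% of records in the T8 and T11 libraries. The authors' deposited log2 values, for 18864 loci, served as an alternative, with a normalization that the sources used here do not describe. Of its columns 1 matched no sample and was not used.

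Tubes of a plate were summed. Tubes of the T8 and T11 plates differed beyond sampling noise, with a chi-square per degree of freedom of 7.91 to 37.1, so no tube is a copy of another. For the T6 plate of batch 2 the value was 113. The 10 most abundant genes took 6.18% of gene counts in its tube 1 and 14.1% in its tube 2. Testing of the counts used the quasi-likelihood test of edgeR 4.0.16 (R 4.3.3) with TMM scaling, low counts removed by filterByExpr (smallest count 10), a single model of 22 plates with terms for time point and batch, and Benjamini-Hochberg adjustment over 20980 genes (10 residual degrees of freedom, common biological coefficient of variation 0.308). A gene passed, and is called higher or lower, with an adjusted p under 0.05. Levels are TMM-scaled CPM per plate, and CPM in the text means this scale. The SE was derived from the test, as the size of the log2 change divided by the square root of the quasi-likelihood F statistic. Within-batch differences are log2 CPM with a prior count of 2. Each batch holds 1 plate of every time point, so batch is the replicate block, taken from the labels, and is part of the model. DESeq2 1.42.0 and limma 3.58.1 were alternatives. The test was also tried on simulated counts with known changes. These held no batch effect and changes in a small part of the genes at T8, so they do not bear on the calls above.

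The named genes are the 12 highest and 12 lowest log2 changes of genes past the threshold that have a symbol, agree in sign between batches and reach a mean of 10 CPM at T8 or T11. APX2, HSFA2, HSP18.2, HSP21, HSP101, MBF1C and up to 6 members of each of 30 lists with the smallest p could be named as well. The comparison, the lists and the rules were chosen with earlier results of these data known. List members count only where the RefSeq annotation of TAIR10.1 gives the locus that symbol (1108 kept, 19 dropped), and 32835 loci were found in it. Promoters were read from that genome by the annotated starts. Lists are described by counts and medians, with no set test.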

Additional observations from a re-analysis of the deposited data

Results flagged for a closer look

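In 3 of the named genes the difference between T8 and T11 was itself different from that between T6 and T9, the acclimated and non-acclimated leaves before the shock, by edgeR's test of the interaction. For EXLA1 (AT3G45970) the log2 difference beyond that before the shock was 6.55 ± 1.46 (edgeR adjusted p = 0.0458). Its T6 plates held 4.06 and 10.8 CPM and its T9 plates 2.78 and 13.4 CPM, while T8 held 247.6 and 13.98 CPM, so the difference was carried mainly by the T8 plate of batch 1. For AZI1 (AT4G12470) it was 5.67 ± 1.17 (edgeR adjusted p = 0.0346), with 21.7 and 156.6 CPM at T6, 23.2 and 139.8 CPM at T9, 339.3 and 400.9 CPM at T8 and 3.46 and 28.5 CPM at T11. For HSFA7A (AT3G51910) it was -4.34 ± 0.98 (edgeR adjusted p = 0.0458), with 0.786 and 1.32 CPM at T6 and 0.488 and 1.70 CPM at T9, against 15.39 and 22.9 CPM at T8 and 573.0 and 203.1 CPM at T11. The interaction gave 0 genes without the T9 plate of either batch and 0 with the T6 to T11 plates fitted alone, so these 3 calls were lost in those fits. No explanation was tested.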

How the results depend on the processing

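The 24 named genes kept their direction and their side of the threshold with library size scaling, RLE scaling, DESeq2, no filter, the T6 to T11 plates alone, tube 2 and without the T11 plate of batch 1. With the 4 plates alone, which leave 1 residual degree of freedom, 0 of 22 passed, and no named gene reversed. The batch is the replicate block, and without it 16 of 24 passed. Of all genes examined, 2 mitochondrial ones reversed, ATMG00480 to 0.73 without the T11 plate of batch 1 (-4.54 without that of batch 2) and ATMG00513 to 0.11 in batch 2 alone. Between T8 and T11, 5726 genes passed, 2907 higher and 2819 lower. The counts became 0, 0 and 0 with the compared plates alone, 3506, 1691 and 1815 with no replicate block, 3159, 1501 and 1658 with tube 2, and 13377, 6621 and 6756 in batch 1 with tubes as samples. Library size scaling gave 5376 higher and 1228 lower, and leaving out 1 plate 1654 to 4352, 936 to 2382 and 718 to 1970. T8 against T9 (3584) gave 0 with its plates alone, 1894 with no block, 2337 and 2104 with tube 1 and tube 2, 11420 in batch 1 and 942 to 2543 without 1 plate. T11 against T9 (1403) gave 3222 by DESeq2, 460 with the T6 to T11 plates, 253 with its plates alone, 478 with no block, 524 and 636 with tube 1 and tube 2, 11657 and 924 in batch 1 and batch 2, and 117 to 1139 without 1 plate. The difference beyond that before the shock (306) gave 169 with library size scaling, 1955 by DESeq2, 0 with the T6 to T11 plates, 0 with its plates alone, 13 with no block, 42 and 51 by tube, 10454 and 674 by batch, 677 on the authors' values and 0 to 744 without 1 plate. T8 against T7 (5167) gave 3212 with its plates alone, 2882 with no block, 3142 with tube 1, 13622 and 2787 by batch and 804 to 4258 without 1 plate. T11 against T10 (0) gave 38 by DESeq2, 1346 with its plates alone, 1 with tube 2, 5719 and 1 by batch and 0 to 1 without 1 plate. Tubes as samples measure the spread within a plate. The last 2 comparisons and their alternatives were added after seeing the data, and the cause of these shifts was not tested.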
